A study of Homo sapiens with 72 samples.

Results

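The control siRNA cells (siGL2) and the control medium cells (pQ) of this study were compared at 0 h, before any decay of mRNA had been followed. Both are the reference states of their own experiment, and both are A375 cells, an established human melanoma line with an activating BRAF mutation. The libraries were chosen from the sample titles as the siGL2 and pQ libraries of the T arm at 0 h, which gave 3 libraries per group and 6 of the 72 libraries of the series. The other conditions of the series are siCTU2 cells, depleted of the tRNA-modifying factor CTU2, and mQ cells, grown without glutamine.

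The siGL2 cells had received a synthetic siRNA with the lipid reagent RNAiMAX while being plated, had their medium changed the next day, and were treated 42 h after transfection. The pQ cells had received no siRNA and no lipid reagent. They were plated, washed with PBS the next day, given fresh medium with glutamine, and treated 18 h after that change. Both groups were then given 25 µM triptolide, which blocks transcription, and were harvested at once, so that the levels at 0 h precede decay. Transfection, the siRNA itself, the washing step and the time in culture differ together between the groups and cannot be told apart. All libraries come from 1 cell line, and the labels do not say whether replicates were separate cultures, so the p-values measure the spread between these libraries. Cytoplasmic RNA was measured by QuantSeq, which reads the 3′ ends of polyadenylated RNA, and levels are given as CPM, counts scaled to 1000000 per library.

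GL2 siRNAs are directed against firefly luciferase, which human cells do not encode, and serve as controls for the act of introducing an siRNA. Once loaded into an Argonaute protein, the guide strand of an siRNA can also lower mRNAs that pair only with its seed, the bases near its 5′ end, as a microRNA does. Medium renewal, serum and culture density are known to alter the growth, stress and sterol genes of cultured cells.

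The guide strand of siGL2 is shown first because it is the only sequence-specific reagent that differed between the groups. It was derived as the reverse complement of the sense strand in the study's siRNA sheet. Its seed, bases 2 to 8 from the 5′ end, is in capitals, and in the mRNA windows below it the capitals mark the 7 bases complementary to that seed.
siGL2 guide strand: uCGAAGUAuuccgcguacg
siGL2 sense strand: cguacgcggaauacuucga
C4orf46: ctgatttggcaTACTTCGt
CDC42SE2: gcctttaaaaaTACTTCGt
PXN: gtcgcaaggacTACTTCGa
HDAC3: cctatagtgaaTACTTCGa
SMYD5: gctgggctagaTACTTCGa
CDK1: aacttcagctgTACTTCGt
The windows run 5′ to 3′ along the mRNA, lie opposite the whole guide strand, and were read from the GENCODE canonical transcripts of GRCh38. The C4orf46 window is in the 3′ UTR (chr4:158669598-158669616, minus strand), as are those of CDC42SE2 (chr5:131394406-131394424, plus strand), SMYD5 (chr2:73226898-73226916, plus strand) and CDK1 (chr10:60794076-60794094, plus strand). The PXN window is in the coding sequence (chr12:120213942-120213960, minus strand). The HDAC3 window is also in the coding sequence and crosses an exon junction between chr5:141625755 and chr5:141626021 on the minus strand. Of 19 bases, the window matched the complement of the guide at 14 in HDAC3, 12 in C4orf46, PXN and SMYD5, 9 in CDC42SE2 and 8 in CDK1.

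The siGL2 libraries held 8098828 to 8853038 counts and the pQ libraries 9316542 to 12328681, so that depth also differed between the groups without overlap. Genes with at least 1 count numbered 16135 to 16331 in siGL2 and 16112 to 16766 in pQ. Pairs of libraries correlated with r of 0.987 to 0.989 within a group and 0.974 to 0.980 between the groups, on log2(CPM + 1) over 12236 genes that are not independent of each other. The melanoma identity was checked on 10 markers, of which 8 reached 1 CPM in all 6 libraries. MLANA and TYR, pigment cell genes, stayed near 0 in both groups, with 0 to 0.644 CPM for MLANA and 0.162 to 1.02 CPM for TYR. Markers of 5 other cell types were checked as well. Counts of 0 in all 6 libraries were found for COL1A2 and COL3A1 of 7 fibroblast markers, for KRT1, KRT5, KRT14 and TP63 of 7 keratinocyte markers, for CDH1 and KRT19 of 7 epithelial markers, for PECAM1, CDH5 and TEK of 5 endothelial markers, and for 3 of 7 leukocyte markers, among them CD3E and CD4. Other members of these lists were present in both groups, with KRT10 at 179 to 233 CPM, KRT18 at 107 to 168 CPM, CD68 at 4.38 to 10.97 CPM and LUM at 4.38 to 6.55 CPM. The summed fibroblast markers were at 11.9 to 13.3 CPM in siGL2 and 8.19 to 10.2 CPM in pQ, and the summed epithelial markers at 147 to 172 CPM and 109 to 142 CPM. In each of these 2 lists 1 marker was called higher, PDGFRB and KRT18, and their part in the results was not tested.

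The 2 control states differed at 2277 of 12236 genes tested, or 18.6%, with an adjusted p under 0.05 in edgeR's quasi-likelihood test. Of these, 1190 were higher in siGL2 cells (9.73% of genes tested) and 1087 were lower (8.88%). Of the 2277, 298 differed 2-fold or more, 165 of them higher and 133 lower in siGL2. When the null was set at a 1.5-fold difference in place of none, 158 genes passed. The same edgeR test called 4429 genes between siCTU2 and siGL2 cells and 3071 between mQ and pQ cells, the comparisons that these control states serve.

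The same contrast was measured a second time in the TCHX libraries, harvested at 0 h after triptolide and 100 µg/ml cycloheximide, which blocks translation. The pQ replicate 3 of this arm stood apart, with counts for 19940 genes against 15938 to 16901 in the other 11 libraries of both groups and arms at 0 h, so the TCHX counts of calls are given with and without it. With all 6 libraries, edgeR called 537 of 12476 genes (4.3%), 2.27% of genes higher and 2.04% lower in siGL2. Without that library it called 1552 of 12660 (12.3%), 6.49% higher and 5.77% lower.

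The genes with the largest falls in siGL2 cells included AATK, a membrane kinase, CDC42SE2, a small effector of the GTPase CDC42, PXN, the focal adhesion adaptor paxillin, HDAC3, a histone deacetylase of corepressor complexes, and ARL6IP1, a protein that shapes the endoplasmic reticulum. PXN was at 89.2, 93.3 and 96.6 CPM in the siGL2 libraries and at 342, 365 and 366 CPM in the pQ libraries. The 2 groups did not overlap, and the log2 fold change was -1.92 ± 0.071 (SE, n = 3 per group, edgeR adjusted p = 4.84e-15). ARL6IP1 had 43.5, 49.6 and 36.2 CPM against 219, 234 and 171 CPM (log2 fold change -2.24 ± 0.113, edgeR adjusted p = 2.14e-12). CDC42SE2 had 7.05, 7.34 and 7.29 CPM against 47.2, 46.9 and 38.5 CPM (log2 fold change -2.58 ± 0.152, edgeR adjusted p = 2.54e-11). The 3 siGL2 values of CDC42SE2 were nearly equal and far from every pQ value. HDAC3 was at 21.8, 16.6 and 19.5 CPM in siGL2 and 78.7, 85.2 and 74.2 CPM in pQ (log2 fold change -2.01 ± 0.118, edgeR adjusted p = 2.38e-11).

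Among less abundant mRNAs, AATK was at 0.809, 0.452 and 2.22 CPM in siGL2 and 9.12, 6.94 and 13.5 CPM in pQ, which gave the largest fall of the genes named (log2 fold change -3.08 ± 0.403, edgeR adjusted p = 6.22e-06). C4orf46 had 2.89, 1.81 and 2.84 CPM against 16.3, 20.9 and 19.1 CPM (log2 fold change -2.88 ± 0.238). MEX3D, an RNA-binding protein gene, fell by 2.58 on the log2 scale, E2F5, a cell cycle transcription factor, by 2.49, the WNT inhibitor DKK1 by 2.06 and the opsin OPN3 by 2.00. These 6 mRNAs were all measured below 21 CPM, and none of their siGL2 values reached the lowest pQ value.

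The largest rises were in IL11, a cytokine, LUCAT1, a long noncoding RNA, MLLT11, and YOD1, a deubiquitinase, together with HMGA2 among abundant mRNAs. HMGA2, a chromatin protein of embryonic and transformed cells, was at 1297, 1229 and 1184 CPM in siGL2 and 378, 374 and 355 CPM in pQ, and had the smallest adjusted p of all genes (log2 fold change 1.77 ± 0.057, edgeR adjusted p = 3.43e-16). MLLT11 had 145, 167 and 165 CPM against 34.2, 37.0 and 37.9 CPM (log2 fold change 2.15 ± 0.091, edgeR adjusted p = 6.36e-14). YOD1 had 50.1, 50.3 and 49.9 CPM against 14.4, 14.2 and 14.6 CPM (log2 fold change 1.82 ± 0.123). For each of these genes the groups lay far apart compared with the spread within either.

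IL11 was scarce, at 5.54, 8.59 and 6.17 CPM in siGL2 and 0.751, 1.08 and 0.973 CPM in pQ, and rose by 2.86 ± 0.379 on the log2 scale (edgeR adjusted p = 7.4e-06). LUCAT1 had 11.1, 15.5 and 13.1 CPM against 1.29, 3.32 and 2.68 CPM (log2 fold change 2.45 ± 0.287). SLITRK6 (log2 fold change 2.60), the lipid hydrolase ABHD4 (2.00), the ubiquitin ligase HECW1 (1.98), the membrane adaptor BIN1 (1.90) and ELAPOR1 (1.83) were also among the 10 genes with the largest rise.

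**Figure D1:**
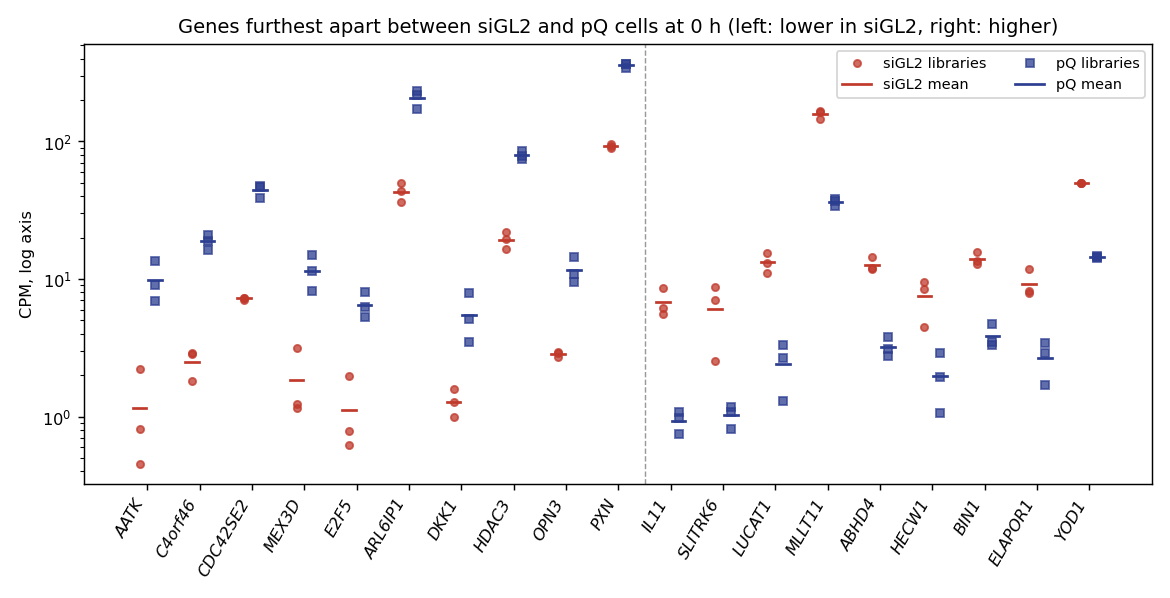
Levels of the 10 genes with the largest fall (left) and 9 of the 10 with the largest rise (right) in siGL2 cells, in CPM on a log axis. Points are libraries (3 per group) and lines are means. No siGL2 library reached the range of the pQ libraries for any of the 19 genes plotted, as the rule for choosing them required, and 33.8% of all genes tested were free of overlap.

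Among the genes with the largest difference in CPM, TIMP3, an inhibitor of matrix metalloproteinases, was at 702, 779.6 and 559 CPM in siGL2 and at 1274, 1417 and 1193 CPM in pQ (log2 fold change -0.90 ± 0.083, edgeR adjusted p = 3.95e-08). RAN, the GTPase of nuclear transport, had 613, 627 and 540.1 CPM against 1022, 1114 and 934 CPM (log2 fold change -0.76 ± 0.066). H3-3B, which encodes a replication-independent histone H3, had a log2 fold change of -0.39 ± 0.056. In the other direction, GAPDH was at 9333, 9109 and 9556 CPM against 7994, 7506 and 7772 CPM (log2 fold change 0.29 ± 0.036, edgeR adjusted p = 2.89e-06). The ferritin chains FTL and FTH1 rose by 0.65 ± 0.069 and 0.40 ± 0.055 on the log2 scale.

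Genes of cell division were lower in siGL2 cells. Of 33 mitosis genes tested, 20 were called lower and 0 higher, or 60.6% called against 18.6% of all genes, and all 33 had a log2 fold change below 0 (median -0.33, against 0.00 over all genes tested). CDK1, the kinase that drives entry into mitosis, had 92.4, 98.2 and 79.9 CPM in siGL2 and 170.4, 171 and 152.5 CPM in pQ (log2 fold change -0.84 ± 0.086, edgeR adjusted p = 1.75e-07). The mitotic kinesin KIF20A (log2 fold change -0.78 ± 0.12), the centromeric histone CENPA (-0.69 ± 0.144) and the checkpoint kinase BUB1B (-0.62 ± 0.115) also fell. In the TCHX libraries, 17 of the 33 were called lower without pQ replicate 3 and 5 with it, and 0 higher, beside 5.77% and 2.04% of all genes. In bulk RNA, fewer dividing cells and less of these mRNAs per cell cannot be told apart. Of the 33 genes, CDK1 and BUB1 held the siGL2 seed site in their coding sequence or 3′ UTR.

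DNA replication genes were called at 41.9%, with 18 of 43 called lower, 0 higher and a median log2 fold change of -0.27. RPA1, the large subunit of the single-stranded DNA-binding complex, moved furthest, at 58.1, 50.4 and 52.97 CPM in siGL2 against 121, 132 and 128 CPM in pQ (log2 fold change -1.21 ± 0.088, edgeR adjusted p = 9.19e-10). The S phase cyclins CCNE2 (-0.91 ± 0.215) and CCNE1 (-0.75 ± 0.157), the transcription factor E2F1 (-0.60 ± 0.121) and the polymerase clamp PCNA (-0.58) were also lower. Of 31 DNA repair genes, 5 were called lower (3 without siGL2 replicate 2) and 0 higher, a share of 16.1%. Of all genes, 8.88% were called lower and 18.6% in either direction. A log2 fold change below 0 was found for 22 of the 31 repair genes, with a median of -0.15. Among them PARP1, which senses DNA breaks, had 129, 112 and 126 CPM against 212.5, 225 and 207 CPM (log2 fold change -0.79 ± 0.076), and the repair polymerase POLB had a log2 fold change of -0.56 ± 0.146. Leaving out each library in turn gave 16 to 20 lower mitosis genes and 13 to 17 lower replication genes, with 0 higher in each of the 6 fits.

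Of 22 p53 target genes, 3 were called lower and 0 higher by edgeR and by DESeq2, or 13.6% beside 18.6% of all genes (8.88% lower). At an unadjusted p under 0.05, 1 was higher and 5 lower. Without pQ replicate 3, 2 were called higher and 1 lower. The cell cycle inhibitor CDKN1A was at 47.5 ± 6.59 CPM in siGL2 and 48.3 ± 10.2 CPM in pQ (SD, n = 3 each).

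Targets of NRF2, the transcription factor of the antioxidant response, were the list with the largest share of calls, at 14 of 22 (63.6%). Of these, 12 were higher in siGL2 cells and 2 were lower, with a median log2 fold change of 0.40. The export pump ABCC2 had 53.9, 50.3 and 60.01 CPM in siGL2 and 19.96, 20.9 and 26.4 CPM in pQ (log2 fold change 1.30 ± 0.128, edgeR adjusted p = 1.01e-07). GCLM, the modifier subunit of the enzyme that begins glutathione synthesis, had 163, 165 and 147 CPM against 69.7, 85.4 and 59.4 CPM (log2 fold change 1.18 ± 0.101). OSGIN1 rose by 1.19 ± 0.156 on the log2 scale, and ME1 (0.71), GSR (0.55) and SRXN1 (0.54), which supply or use reducing power, were higher as well. The 2 members called lower were PGD, of the pentose phosphate pathway (log2 fold change -0.67), and AKR1B1 (-0.24, called in 3 of 6 fits with a library left out). PGD held the siGL2 seed site, as did TKT of the same list, which was not called lower. SLC7A11, the cystine importer that is grouped here with amino acid stress genes and is also induced by NRF2, was lower, at 56.9, 63.0 and 72.8 CPM against 99.9, 137 and 135 CPM (log2 fold change -0.93 ± 0.112). Its 3′ UTR held a siGL2 seed site, as did that of SLC38A2 of the same list, which rose by 0.45 on the log2 scale.

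Lysosome and autophagy genes were higher in siGL2 cells at 12 of 29 tested, with 0 lower, or 41.4% called beside 18.6% of all genes. Their median log2 fold change was 0.15. GABARAPL1, which coats autophagosomes, had 81.3, 76.8 and 79.02 CPM against 21.0, 27.5 and 24.01 CPM (log2 fold change 1.73 ± 0.111, edgeR adjusted p = 9.77e-11). The protease CTSD (0.85 ± 0.079) and the proton pump subunit ATP6V0E1 (0.70 ± 0.07) were also higher. Glycolysis genes were called higher at 7 of 18 and lower at 0, or 38.9% called. They were led by the glucose transporter SLC2A3 (0.82 ± 0.118), the aldolase ALDOC (0.71 ± 0.167) and the enolase ENO2 (0.69 ± 0.148). With each library left out in turn, 8 to 12 lysosome genes, 6 to 7 glycolysis genes and 12 to 13 NRF2 targets were called higher.

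Of the cholesterol list, 5 of 22 genes were called higher and 0 lower, a share of 22.7% beside 18.6% of all genes (9.73% higher). The median log2 fold change was 0.10. Among the 5 were HMGCS1 and MSMO1, which act in synthesis, the sterol sensor partner INSIG1 and the isomerase IDI1, which kept its call in 3 of 6 fits with a library left out. HMGCS1 rose by 1.03 ± 0.123 and MSMO1 by 0.88 ± 0.151 on the log2 scale (edgeR). Of 10 fatty acid synthesis genes, edgeR and DESeq2 each called 0, with 1 at an unadjusted p under 0.05. Without siGL2 replicate 2, edgeR called 1 higher. In the TCHX libraries it called 2 higher without pQ replicate 3 and 0 with it.

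Several secreted and feedback genes of growth signalling were higher in siGL2 cells. TGF-beta target and ID genes were called higher at 5 of 13 and lower at 0, or 38.5% beside 18.6% of all genes. Without siGL2 replicate 2, pQ replicate 1 or pQ replicate 3, 3 were called higher. The differentiation inhibitor ID1 had 121, 118 and 116 CPM against 62.5, 42.2 and 39.7 CPM (log2 fold change 1.33 ± 0.12). Targets of YAP and TEAD were called higher at 6 of 21 and lower at 2, or 38.1% called. With each library left out, 4 to 6 were higher and 1 to 2 lower. The matricellular genes CCN2 (1.198 ± 0.139) and CCN1 (0.99 ± 0.184) rose, while LATS2, a kinase that restrains YAP, fell by 0.67 ± 0.152 on the log2 scale. CCN2 varied within siGL2, at 87.1, 132 and 76.6 CPM, against 45.4, 45.7 and 40.1 CPM in pQ. ERK pathway genes were called higher at 6 of 19 and lower at 2, or 42.1% called. The feedback inhibitors SPRY2 (0.81 ± 0.087) and SPRY4 (0.60 ± 0.089), the AP-1 member FOSL1 (0.55 ± 0.092) and cyclin D1, CCND1 (0.54), rose. Without pQ replicate 1, 0 ERK pathway genes were called lower by edgeR. Immediate early genes were called at 4 of 19, or 21.1% beside 18.6% of all genes, 2 in each direction, and with each library left out in turn 1 to 2 were higher and 0 to 1 lower.

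NF-kB targets had the highest median of the lists, 0.43. Of 15 tested, 5 were called higher and 0 lower, or 33.3% beside 18.6% of all genes. Without siGL2 replicate 3, pQ replicate 1 or pQ replicate 2, 3 were called higher. CXCL8, a chemokine, was at 4.74, 17.5 and 9.75 CPM in siGL2 and 4.08, 2.64 and 3.57 CPM in pQ, so that the lowest siGL2 library lay close to the highest pQ library (log2 fold change 1.66 ± 0.347, edgeR adjusted p = 0.00128). The apoptosis inhibitor BIRC2 was tighter, with 119.9, 146 and 116 CPM against 88.5, 92.1 and 87.5 CPM (log2 fold change 0.54 ± 0.089).

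Double-stranded RNA can evoke interferon, so interferon-stimulated genes were examined. Of 41 tested, 6 were called higher and 2 lower, or 19.5%, beside 18.6% of all genes, and the median log2 fold change was 0.06. Without pQ replicate 1, 3 were called higher and 1 lower. ISG15, a classical member, was at 19.99 ± 0.501 CPM in siGL2 and 19.1 ± 3.15 CPM in pQ (SD, n = 3 each). IFIT1 had 0.876 ± 0.539 CPM against 2.06 ± 0.742 CPM, with an edgeR adjusted p of 0.128. Those called higher included IFIT3, at 11.84 ± 2.06 CPM against 7.33 ± 1.865 CPM. SAMD9L, at 7.56 ± 2.025 CPM against 4.39 ± 0.691 CPM, and PARP14, at 62.95 ± 3.03 CPM against 48.35 ± 5.19 CPM, were also called higher. Another 2 members were called lower. RNF213, a large ubiquitin ligase, was higher in each of the 6 fits that left out a library (log2 fold change 0.41 ± 0.091 with all). Of 15 antigen presentation genes, 10 did not pass the filter on low counts, and of the other 5 edgeR and DESeq2 each called 0, with 0 at an unadjusted p under 0.05. In the TCHX libraries edgeR called 1 of the 5 higher without pQ replicate 3 and 0 with it.

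The machinery of RNA interference itself was called at 2 of 13 genes, both higher, or 15.4% beside 18.6% of all genes (9.73% higher). Without pQ replicate 3, 4 were called higher, and without siGL2 replicate 2, 3. DICER1, which cuts microRNA precursors, was at 145, 138 and 147 CPM in siGL2 and 73.2, 73.5 and 70.6 CPM in pQ (log2 fold change 1.01 ± 0.079, edgeR adjusted p = 3.04e-09). TNRC6A, a partner of Argonaute, was at 155, 155 and 142 CPM against 52.5, 45.0 and 53.6 CPM (log2 fold change 1.60 ± 0.089), although a second entry of this gene in the count table leaves its counting uncertain. AGO2, the Argonaute that cuts targets, was at 113 ± 4.92 CPM in siGL2 and 106 ± 8.16 CPM in pQ (SD, n = 3 each), with a log2 fold change of 0.12 ± 0.083 (edgeR adjusted p = 0.378).

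Melanocyte lineage genes moved in both directions. DCT, an enzyme of melanin synthesis, was at 23.9, 21.6 and 42.1 CPM in siGL2 and 98.4, 78.1 and 111 CPM in pQ (log2 fold change -1.70 ± 0.169, edgeR adjusted p = 1.24e-07). CAPN3 (1.29 ± 0.152) and the endothelin receptor EDNRB (1.10 ± 0.124) were higher, as was SOX10 (0.36 ± 0.082). MITF, the master regulator of the lineage, was at 346 ± 41.1 CPM in siGL2 and 357 ± 22.6 CPM in pQ (SD, n = 3 each). In total 4 of 15 lineage genes were called higher and 2 lower, or 40% beside 18.6% of all genes. Without siGL2 replicate 1, 1 was called lower. Of 14 genes of dedifferentiated melanoma, 2 were called higher (1 to 2 with each library left out) and 3 lower (2 to 3), or 35.7%. Those lower included the caveolar coat gene CAV1 (log2 fold change -1.07 ± 0.09) and SOX9 (-0.37 ± 0.061). CAV1 held the siGL2 seed site.

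Adhesion genes were likewise mixed, with 4 of 30 called higher and 5 lower, or 30% beside 18.6% of all genes. Of the 30, 9 held the siGL2 seed site, and 1 of these was called lower. The integrin subunits ITGA5 (log2 fold change 1.10 ± 0.092) and ITGB3 (0.80 ± 0.096) rose, and fibronectin, FN1, fell by 0.41 ± 0.098 on the log2 scale. Amino acid stress genes were called at 4 of 22, or 18.2% beside 18.6% of all genes, 2 in each direction, and cytoplasmic aminoacyl-tRNA synthetases at 3 of 18, or 16.7%. With each library left out in turn, 1 to 2 stress genes were higher and 2 lower, and 0 to 1 synthetases were higher and 1 to 2 lower. CTU2 was at 21.1, 22.0 and 24.2 CPM in siGL2 and 32.2, 29.9 and 25.96 CPM in pQ (log2 fold change -0.36 ± 0.137, edgeR adjusted p = 0.0724). EPRS1, the glutamyl-prolyl-tRNA synthetase, was at 158 ± 5.49 CPM against 169.9 ± 2.61 CPM (SD, n = 3 each), with a log2 fold change of -0.08 ± 0.071.

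Cytosolic ribosomal proteins were called higher at 6 of 73 and lower at 5, or 15.1% beside 18.6% of all genes, with log2 fold changes between -0.23 and 0.19. With each library left out in turn, 1 to 4 were higher and 2 to 8 lower, the fewest higher without siGL2 replicate 1 and the most lower without pQ replicate 3. Respiratory chain subunits had 1 of 66 higher and 8 lower (3 lower without siGL2 replicate 3), or 13.6% called, with a median of -0.06. The exception in size was UQCR10, a small subunit of complex III, at 57.9, 60.1 and 52.4 CPM in siGL2 against 148, 136 and 129 CPM in pQ (log2 fold change -1.25 ± 0.088, edgeR adjusted p = 5.03e-10). Ribosome biogenesis genes had 0 of 30 higher and 3 lower by edgeR, or 10.0% called, with 3 higher and 6 lower at an unadjusted p under 0.05, and 1 to 2 lower with each library left out in turn. Hypoxia-inducible genes had 4 of 21 higher (2 without pQ replicate 2, 6 without pQ replicate 3) and 1 lower, or 23.8% called. Among the higher ones NDRG1, at 0.62 ± 0.086, held the siGL2 seed site. ER chaperone genes had 4 of 20 higher (3 to 4 with each library left out) and 2 lower (1 to 3), or 30% called. DNAJB9, a cochaperone of the endoplasmic reticulum, was at 1.29 ± 0.197. Heat shock genes had 1 of 15 higher (0 without siGL2 replicate 1 or 2, and 2 by DESeq2) and 1 lower, or 13.3% called. The list of sterol efflux and LXR genes had 2 of 10 higher and 2 lower (0 lower without siGL2 replicate 3 or pQ replicate 1), or 40% called. Those higher included NR1H2, which encodes an LXR itself and is not a target. Metallothioneins, listed with the zinc transporter SLC30A1, had 1 of 3 higher (33.3%). The MondoA list had 2 of 6 lower (33.3%), the target TXNIP (log2 fold change -0.65) and MLXIP, the gene of MondoA itself.

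**Figure D2:**
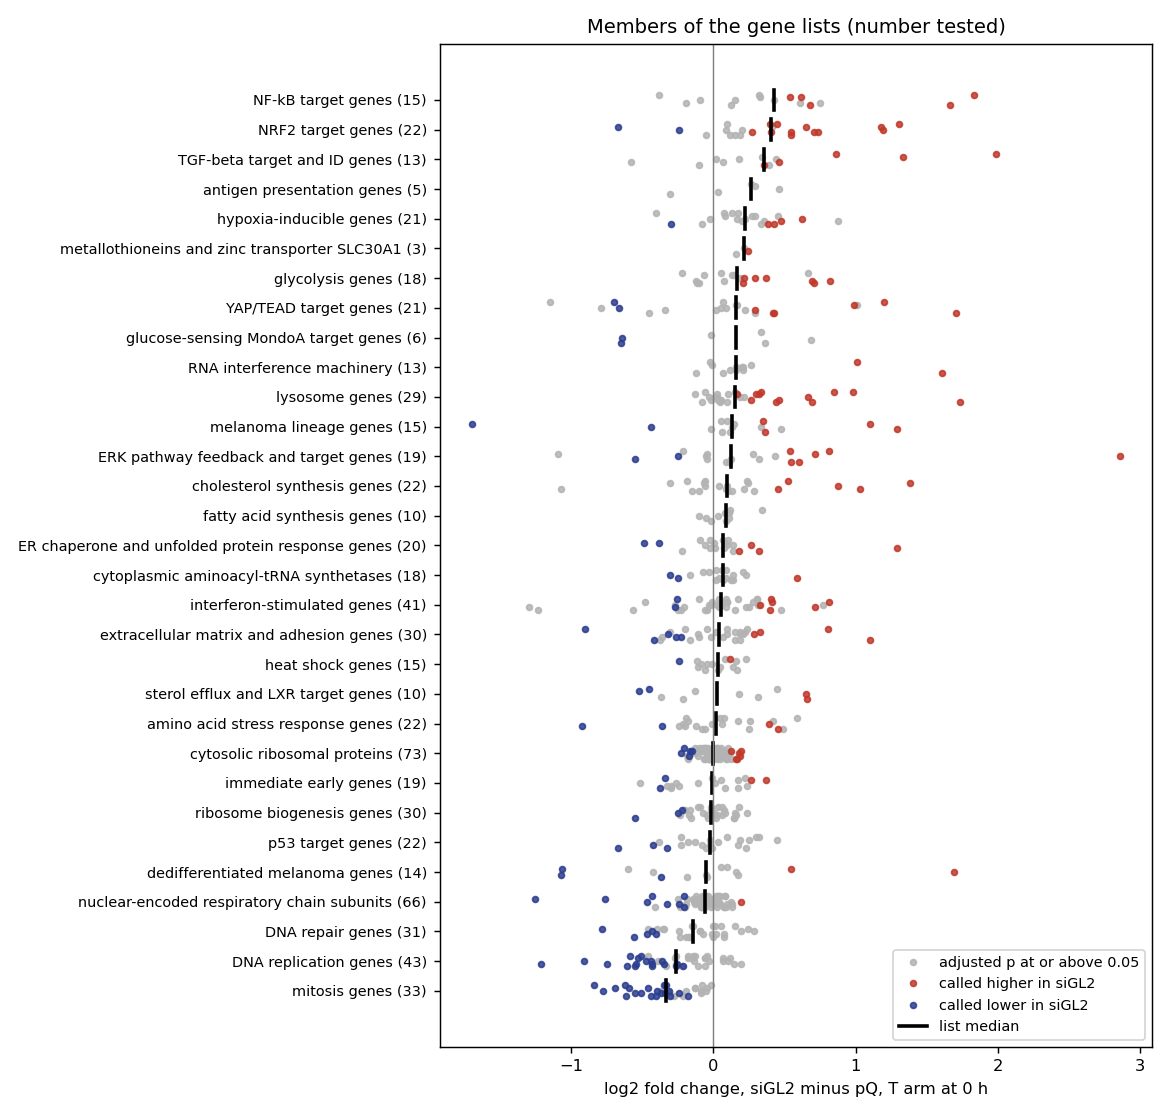
Log2 fold change (siGL2 minus pQ) of every tested member of the 31 gene lists, ordered by list median. Red and blue points passed an adjusted p of 0.05 in edgeR as higher or lower in siGL2, grey points did not, and black bars are list medians, which run from -0.33 (mitosis) to 0.43 (NF-kB targets).

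The siGL2 seed site was then counted across mRNAs, without regard to their levels. The site TACTTCG, on the mRNA strand, was present in the 3′ UTR of 162 of 10664 tested genes with a canonical 3′ UTR of at least 50 bases, or 1.52%. Of these 162 genes, 38 (23.5%) were called lower in siGL2 and 9 (5.56%) higher, whereas of the 10502 without a site 9.41% were lower and 10.5% higher. Their median log2 fold change was -0.12, against 0.00 without the site. Another 453 genes had the site in the coding sequence and not in the 3′ UTR, and of these 88 (19.4%) were lower and 33 (7.28%) higher, with a median of -0.13. Most genes with the site were therefore not called, and 1069 of the genes with no site in either region were called higher and 900 lower.

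The 8-base form with a final A, TACTTCGA, was in the 3′ UTR of 28 genes, of which 4 (14.3%) were lower and 3 (10.7%) higher. Of all genes with a 3′ UTR, 9.62% were lower and 10.4% higher. The median log2 fold change was -0.06 for the 8-base form and -0.12 for the 7-base site, so the longer match showed no larger fall in these few genes.

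The counts were repeated within tertiles of 3′ UTR length and of GC3, the share of G or C at the last codon position, since a site is more often met in long mRNAs and contains a CG pair. In the middle tertile by 3′ UTR length (above 832 and up to 2334 bases), 36.1% of 36 genes with a site were called lower against 8.47% without one. In the longest tertile the values were 17.9% of 117 genes against 8.84%, while the shortest tertile had too few genes with a site to give a share. By GC3, genes with a site in the coding sequence or 3′ UTR were called lower at 18.2%, 20.9% and 22.2% in the lowest, middle and highest tertile, against 7.22%, 9.35% and 10.3% without one. The same count was made for siRNAs that neither group had received, as a background. The 3′ UTR seed sites of the 4 guide strands against CTU2 and EPRS1 gave 8.55% to 9.42% lower, and those of their 4 passenger strands 5.97% to 9%. The highest of the passenger strands was the siCTU2#2 site GTTCACG, which also contains CG and occurred in 411 genes. The passenger strand of siGL2 has the seed site CGCGTAC, which occurred in the 3′ UTR of 23 genes, of which 7 (30.4%) were lower and 2 (8.7%) higher.

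**Figure D3:**
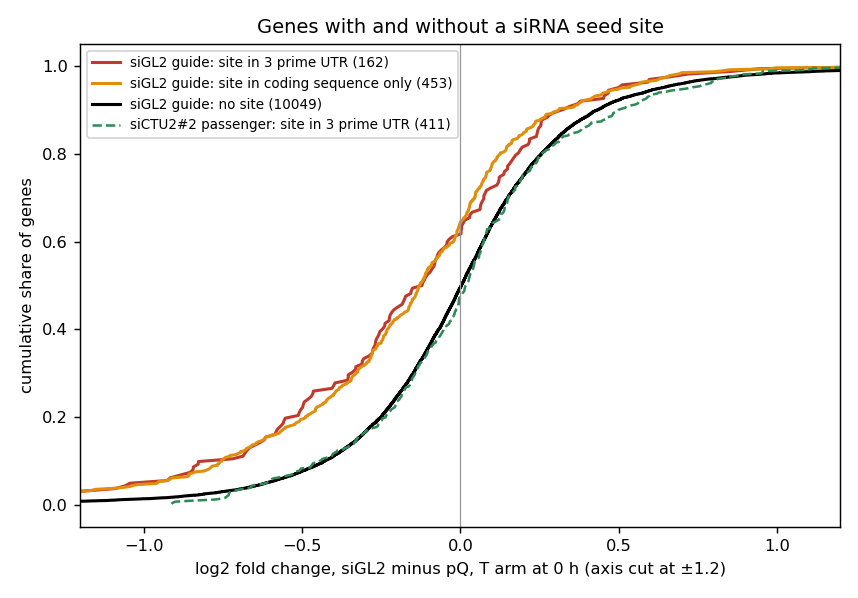
Cumulative share of genes against log2 fold change (siGL2 minus pQ), for genes with the siGL2 guide seed site in the 3′ UTR (162), in the coding sequence only (453) or in neither (10049), and for genes with the siCTU2#2 passenger site in the 3′ UTR (411). Both siGL2 site curves lie to the left of the other 2 curves, with medians of -0.12 and -0.13.

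Among the 10 genes with the largest fall, 5 held the siGL2 seed site, which are C4orf46 and CDC42SE2 in the 3′ UTR and AATK, HDAC3 and PXN in the coding sequence. By comparison, 5.77% of the 10664 genes held it in either region. Only ELAPOR1 held it among the genes with the largest rise. MEX3D, E2F5, ARL6IP1, DKK1 and OPN3 held no copy in the coding sequence or 3′ UTR of their canonical transcript, and neither did TIMP3, RAN, RPA1 or UQCR10 among the other genes described. EPRS1 and AGO2 held the site and were not called, and SLC38A2 and NDRG1 held it and were called higher. Further site-bearing genes with clear falls were SMYD5, at 12.9 against 30.1 CPM (log2 fold change -1.199), CILK1, at 15.04 against 36.6 CPM (-1.26), and the ion transporter SLC12A2, at 79.5 against 145 CPM (-0.84). These 3 were picked after their values were seen, from the site-bearing genes with the largest falls. A site is a match of letters and was not tested as a binding site.

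Levels in the other conditions of the T arm at 0 h are given beside those of the 2 control states, as levels only. The siCTU2 cells had also been transfected, with other siRNAs, for 42 h. CDC42SE2 was at 44.7 ± 4.18 CPM in siCTU2 and 46.9 ± 5.56 CPM in mQ (SD, n = 3 each), near the pQ mean of 44.2, and siGL2 stood alone at 7.22 CPM. UQCR10 was likewise at 148 CPM in siCTU2 and 116 in mQ, against 138 in pQ. RAN was at 1054 CPM in siCTU2 and 1023 in pQ, but at 696 in mQ. PXN was intermediate in siCTU2, at 169 ± 3.99 CPM, as was HDAC3, at 29.1 ± 2.00 CPM. The site-bearing C4orf46 (7.59 CPM), SMYD5 (22.99 CPM) and SLC12A2 (106.1 CPM) also lay between siGL2 and pQ there. AATK was at 0.835 ± 0.784 CPM in siCTU2 and 1.16 in siGL2, against 9.84 in pQ and 16.8 in mQ. CILK1 was lower in siCTU2 (8.35 CPM) than in siGL2 (15.04 CPM), against 36.6 in pQ and 27.7 in mQ.

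Other genes were higher in both transfected conditions than in pQ and mQ. YOD1 was at 44.2 ± 2.43 CPM in siCTU2 and 50.1 CPM in siGL2, against 14.4 CPM in pQ and 9.19 ± 0.943 CPM in mQ. DICER1 followed the same order, with 120.3 ± 2.55 CPM in siCTU2 and 59.2 ± 1.68 CPM in mQ. BIN1 was at 13.1 CPM in siCTU2 and 14.03 in siGL2, against 3.84 in pQ and 3.59 in mQ, and GCLM at 191 and 159 CPM against 71.5 and 44.6 CPM. HMGA2 showed no such grouping, since siCTU2 had the lowest level of the 4 conditions, at 109 ± 4.67 CPM, and siGL2 the highest, at 1236 ± 57 CPM.

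**Figure D4:**
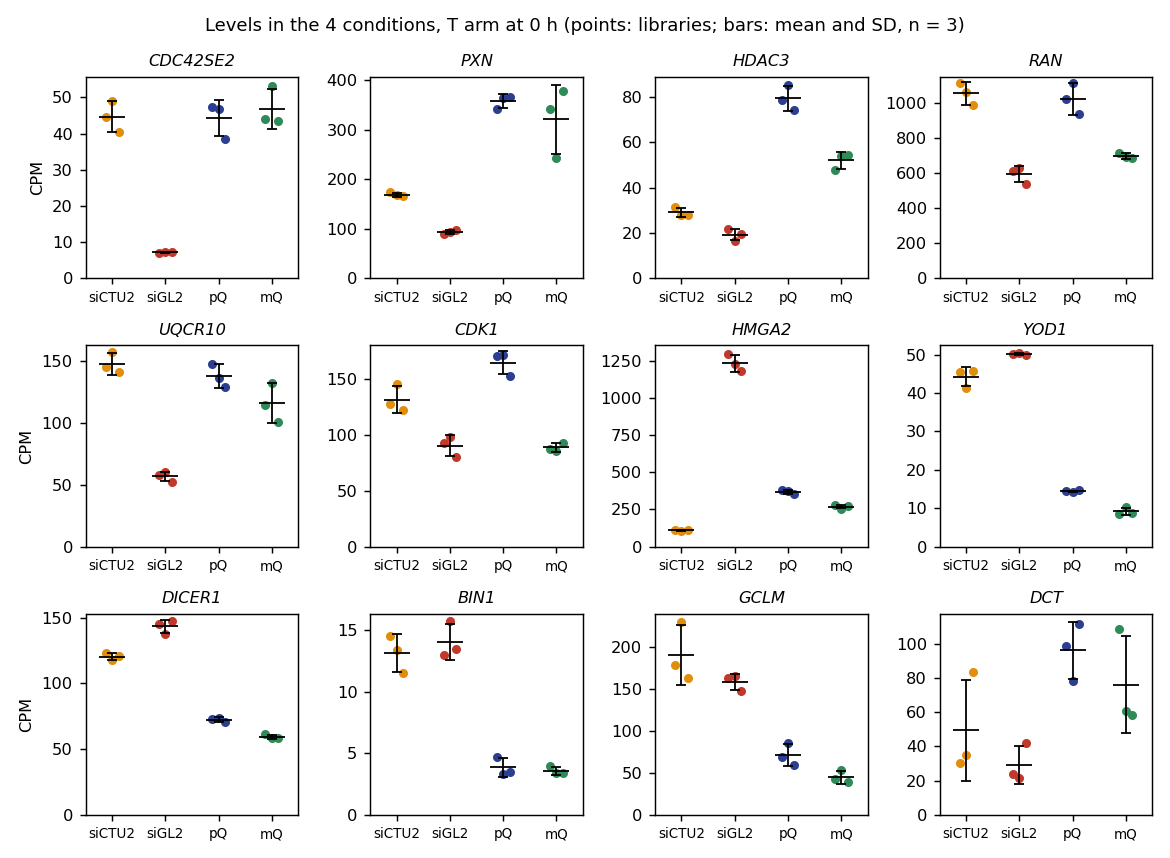
CPM of 12 genes in the siCTU2, siGL2, pQ and mQ libraries of the T arm at 0 h, on linear axes that start at 0. Points are libraries and bars the mean and SD (n = 3). The means of CDC42SE2, PXN, HDAC3, RAN, UQCR10 and DCT are lowest in siGL2 among the 4 conditions shown. YOD1, DICER1, BIN1 and GCLM are higher in both transfected conditions than in pQ and mQ.

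Of the 2277 genes called in the T arm, 2273 were tested in the TCHX arm without pQ replicate 3, and 2227 of them (98%) had a log2 fold change of the same sign. In that fit, 1231 were called in the same direction and 1 in the opposite direction. With all 6 TCHX libraries, 2134 of 2272 (93.9%) had the same sign, 498 were called in the same direction and 1 in the opposite direction. Of the 20 genes with the largest changes, 20 kept their direction and 19 their call, HECW1 being the exception (log2 fold change 1.12, edgeR adjusted p = 0.0687, and 1.00 with an adjusted p of 0.119 with all 6 libraries). With all 6 libraries, 15 of the 20 were called. Whether the T and TCHX wells of a replicate came from one culture is not stated.

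The difference between the arms was also tested as an interaction over 12 libraries. By edgeR, 0 of 12906 genes had an adjusted p under 0.05, with 445 at an unadjusted p under 0.05 and a smallest adjusted p of 0.987. Without pQ TCHX replicate 3 the counts were 0 and 349. The site-bearing genes had a median log2 fold change of -0.10 for 3′ UTR sites in the TCHX arm without that library, and -0.12 with it. NRF2 targets were called higher at 12 of 22 and lower at 1 without that library, and at 7 and 0 with it. Lysosome genes were higher at 9 of 29 without it and 5 with it, and glycolysis genes at 5 of 18 and 0. ER chaperone genes were higher at 1 of 20 and lower at 0 in both fits. Of 73 ribosomal protein genes, 0 were higher and 1 lower without it. Of all genes, 6.49% were higher and 5.77% lower without it, and 2.27% and 2.04% with it.

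**Figure D5:**
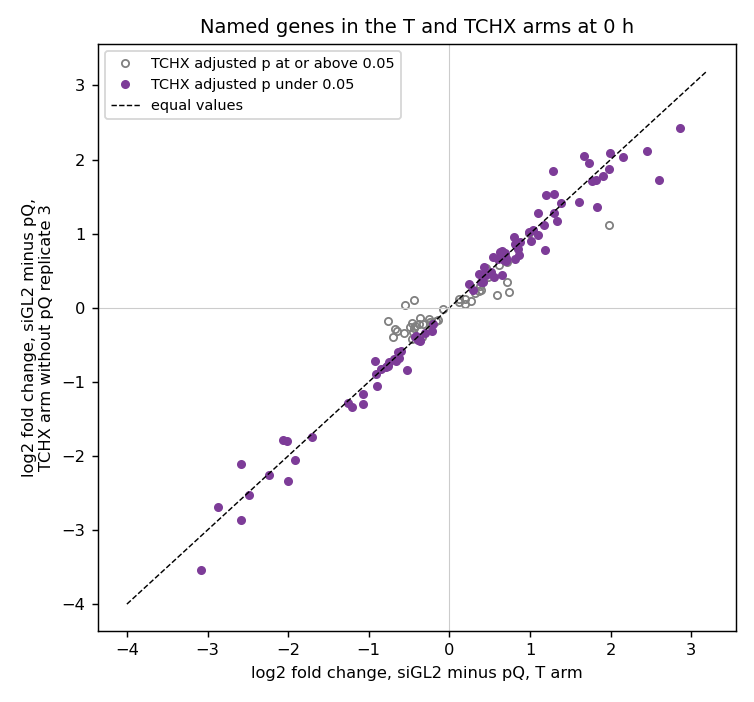
Log2 fold change (siGL2 minus pQ) of the named genes in the T arm (horizontal) and in the TCHX arm without pQ replicate 3 (vertical). Filled points passed an adjusted p of 0.05 in the TCHX fit, and the dashed line marks equal values. The 20 genes with the largest T arm changes, from AATK at -3.08 to IL11 at 2.86, had the same sign in both arms.

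Finally, coding composition was described for 10762 genes with a canonical coding sequence, since codon content is a subject of the study. Genes called lower in siGL2 had a median GC3 of 61.4%, against 57.2% in genes called higher and 57.4% in all genes. Per 1000 codons, the lysine codon AAA had medians of 21.6 in lower, 25.5 in higher and 23.9 in all genes. The glutamate codon GAA followed the same order, with 26.1, 30.6 and 28.9. The aspartate codon GAT (19.6, 23.8 and 21.7) and the asparagine codon AAT (14.4, 16.5 and 15.6) did so as well. The higher genes also had longer 3′ UTRs, with a median of 1880 bases against 1304 in lower genes and 1427 in all genes.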

How the data were processed

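The deposited values were raw read counts per gene. Per the labels and the study's methods, the authors trimmed forward QuantSeq reads with fastp 0.20.1, mapped them to GRCh38 with HISAT2 2.2.1 and counted exons with HTSeq 0.13.5 and NCBI's annotation. Molecular identifiers and the strand setting are not given in the sources used here, so PCR copies may be counted and overlapping or antisense genes can share reads. The table held 44659 names, of which 5088 mark extra copies of a gene, and 0 spike-in names, so no spike-in scaling was made. All columns were matched to samples, and 0 were left over.

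Counts of the 6 libraries were fitted in R 4.3.3 with edgeR 4.0.16 (filterByExpr, TMM scaling, glmQLFit and glmQLFTest, no replicate term), with Benjamini-Hochberg adjustment over all genes tested and a threshold of 0.05. Positive values mean higher in siGL2. The procedure was tested on simulated data. DESeq2 1.42.0, other scalings, filters and libraries served as alternatives. CPM use the full library total, and 3 counts correspond to 0.243 to 0.370 CPM.

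Genes were named by rule. They were the 10 largest rises and falls with at least 50 counts in the higher group and no overlap of the groups (33.8% of genes tested do not overlap), the 5 largest CPM differences each way, up to 4 called members of each of 31 lists, and CTU2, EPRS1, AGO2 and DICER1. Some further list members are named to describe counts. Some genes that meet the rule are not reported here. The members, lists and rules were chosen with earlier results of these data known, and the microRNA lists, the GC3 tertiles, the coding sequence sites and the sites of other siRNAs after seeing the data. Sites were searched on the mRNA strand of GENCODE v44 canonical transcripts, to which 10769 of 12236 tested genes were matched. MicroRNA sequences are from RefSeq (GRCh38.p14).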

Additional observations from a re-analysis of the deposited data

How the results depend on the processing

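The count of 2277 genes between siGL2 and pQ stayed within 1.5 times under DESeq2 size factors, upper-quartile scaling, no filter, a stricter filter, DESeq2's own test and the TCHX libraries without pQ replicate 3. It was 1339 with all 12 T arm libraries in 1 fit, 537 in the TCHX libraries and 158 when a difference beyond 1.5-fold was required, and 1682 to 2078 when each library was left out. The TCHX count of 537 became 122, 109 and 99 without siGL2 replicate 1, 2 or 3, and 168, 357 and 1552 without pQ replicate 1, 2 or 3. Same-numbered siGL2 and pQ libraries deviated together only weakly (r of 0.036, 0.099 and 0.15), so the numbers were not taken to pair them, although each siGL2 library correlated best with its own number. With the replicate number as a block, the counts were 3279 (T arm), 911 (TCHX arm) and 0 (difference between arms). The block called 12 of 73 ribosomal protein genes higher and 15 lower, against 6 and 5 without it. It called 25 DNA replication genes lower against 18, and 9 DNA repair genes lower against 5, with 0 higher. Of the hypoxia-inducible genes it called 8 higher and 2 lower, against 4 and 1. The labels give same-numbered libraries a shared prefix across groups, without saying what it stands for.

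Of the 133 genes named by the rule, 0 turned direction under the T arm alternatives. In the TCHX libraries the sign turned for TRIB3 (-0.22), CARS1 (-0.57), EDEM1 (0.051), HMOX1 (-0.42), ID2 (-0.60), TFAP2A (0.27), MYC (0.23), RPS28 (-0.015), RPS10 (-0.12), SDHD (0.26) and NDUFB3 (0.27), all log2 fold changes. Without pQ replicate 3 this held only for TFAP2A (0.11) and MYC (0.042). Against a 1.5-fold change, 86 of the 133 lost their call. The cause of these differences was not tested. Genes near the filter on low counts, such as AATK or IL11, rest on few reads per library.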

Other observations

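Seed sites of microRNAs were searched in the same 3′ UTRs, after the levels of HMGA2 and of LIN28B, both classical let-7 targets, had been seen. The microRNAs are shown with their seed, bases 2 to 8, in capitals, since the site searched is its complement on the mRNA strand followed by A.
hsa-let-7a-5p: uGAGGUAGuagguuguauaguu
hsa-miR-17-5p: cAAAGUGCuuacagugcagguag
hsa-miR-92a-3p: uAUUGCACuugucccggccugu
hsa-miR-29a-3p: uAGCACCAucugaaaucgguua
hsa-miR-122-5p: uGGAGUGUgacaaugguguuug
LIN28B, which blocks let-7 maturation, was at 15.1, 15.5 and 14.1 CPM in siGL2 and 4.94, 3.42 and 4.70 CPM in pQ (log2 fold change 1.80 ± 0.222, edgeR adjusted p = 2.89e-06). The canonical 3′ UTRs of HMGA2 and LIN28B each held 4 copies of the 7-base let-7 site CTACCTC, and that of YOD1 held 2, whereas 11.5% of all 3′ UTRs held at least 1. DICER1 held 4 copies in its coding sequence and 0 in its 3′ UTR.

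Genes with the 8-base site GTGCAATA of miR-92a-3p (430, or 4.03% of 3′ UTRs) were called higher in siGL2 at 21.4% and lower at 6.05%, with a median log2 fold change of 0.12. The values for GCACTTTA of miR-17-5p (625 genes, or 5.86%) were 20% and 6.72% with a median of 0.08, and for TGGTGCTA of miR-29a-3p (406 genes, or 3.81%) 19.5% and 7.14% with a median of 0.10. The let-7 site CTACCTCA (486 genes, or 4.56%) gave 14.6% and 5.35% with a median of 0.07. Over all genes with a 3′ UTR, 10.4% were higher and 9.62% lower. The site ACACTCCA of the liver microRNA miR-122-5p (370 genes, or 3.47%) gave 13.5% and 8.92% with a median of 0.00. The shares called higher lay closer together with the 7-base sites. They were 15% for miR-29a-3p, 14.5% for miR-92a-3p, 13.8% for miR-17-5p and let-7, and 12.7% for miR-122-5p. In the longest tertile of 3′ UTRs, the shares called higher with an 8-base site were 21.5% for miR-92a-3p, 20% for miR-17-5p and miR-29a-3p, 15.1% for let-7 and 12.4% for miR-122-5p, beside 11.3% to 13% of the genes there without the respective 7-base site. The 7-base let-7 site gave 13.7% there, against 12.8% without it. Of the 11 microRNAs searched, these 5 are given, and the others had 8-base sites called higher at 13.5% to 16.1%. The let-7 share lies within that range. MicroRNA levels were not measured, and their part in these differences was not tested.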
